A study of Caenorhabditis elegans with 2 samples.

Results

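The C. elegans eggshell and oocyte surface genes cpg-1, cpg-2, egg-1, egg-2, egg-3 and rme-2 were examined in ChIP-seq peak lists of SNPC-1.3. They are 6 of the 19973 nuclear protein-coding genes of the Ensembl WBcel235 annotation. The genes were chosen by name, with the ranks and signal values of the regions at their 5′ ends already known, so those values are given as a description and support no test. Chromatin came from young adult hermaphrodites of strain YL485, whole animals whose age is labelled unknown, which carry SNPC-1.3 (gene F08F3.9) fused at its C terminus to GFP and FLAG. Sonicated chromatin was pulled down through the GFP part of the fusion, which a stably transgenic line expressed. There was 1 group of 2 biological replicates, each called against the same single control, and no second strain, stage or treatment to set it against. Whole animals mix germline and somatic nuclei, so strong binding in few nuclei and weak binding in many cannot be told apart.

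SNPC-1.3 is related to a subunit of SNAPc, the complex that brings RNA polymerases to small nuclear RNA and, in nematodes, piRNA promoters, and it is known as a factor for piRNA transcription in the male germline. The genes described here belong to the other gamete. The C. elegans eggshell is assembled in layers within minutes of fertilization from proteins stored in the oocyte, and sperm entry, egg activation and shell formation are tied together by proteins of the oocyte surface. CPG-1 and CPG-2 are chondroitin proteoglycans with chitin-binding domains that form an inner eggshell layer. EGG-1 and EGG-2 are oocyte membrane proteins with LDL-receptor repeats that sperm need to fertilize the egg, EGG-3 is a phosphatase-like protein of the egg cortex that holds the kinase MBK-2 there, and RME-2 is the oocyte receptor for yolk.

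The DNA under the regions is shown first, because the windows share short elements that the choice of genes did not use. The windows of 5 members are printed. Each line is the 201 bp around the pooled summit, 5′ to 3′ in the direction of the gene's transcription, on WBcel235 (the assembly of ce11), read from the RefSeq genome sequence. Capitals mark the letters GCGGGA, the core of an E2F-like element, and AAGGCGCG, each on either strand. The windows are chrIII:4489004-4489204 for cpg-1 and chrIII:5727891-5728091 for egg-1 on the plus strand, chrIII:7060591-7060791 for egg-2 on the minus strand, chrIV:5469845-5470045 for rme-2 on the plus strand and chrII:10884473-10884673 for egg-3 on the minus strand.
cpg-1: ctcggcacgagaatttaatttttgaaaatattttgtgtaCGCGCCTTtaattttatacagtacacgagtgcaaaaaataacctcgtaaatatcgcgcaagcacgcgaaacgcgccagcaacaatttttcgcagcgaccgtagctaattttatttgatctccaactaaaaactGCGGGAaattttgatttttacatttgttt
egg-1: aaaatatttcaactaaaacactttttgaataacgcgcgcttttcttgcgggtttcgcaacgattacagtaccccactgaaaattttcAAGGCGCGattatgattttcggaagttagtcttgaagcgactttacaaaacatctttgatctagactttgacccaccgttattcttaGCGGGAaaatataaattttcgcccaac
egg-2: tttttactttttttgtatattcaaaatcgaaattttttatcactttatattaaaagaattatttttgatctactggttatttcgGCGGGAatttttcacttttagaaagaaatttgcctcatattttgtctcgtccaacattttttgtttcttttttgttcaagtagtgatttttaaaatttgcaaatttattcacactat
egg-3: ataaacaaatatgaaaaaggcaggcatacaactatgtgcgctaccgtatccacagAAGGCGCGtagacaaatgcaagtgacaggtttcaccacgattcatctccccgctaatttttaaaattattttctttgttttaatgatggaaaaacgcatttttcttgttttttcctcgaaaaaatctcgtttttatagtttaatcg
rme-2: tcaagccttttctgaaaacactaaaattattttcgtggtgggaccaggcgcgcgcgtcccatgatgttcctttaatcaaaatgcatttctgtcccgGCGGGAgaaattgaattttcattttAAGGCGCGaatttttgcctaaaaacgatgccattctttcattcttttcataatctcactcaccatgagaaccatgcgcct

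The letters TTCCCGC, an E2F element from the motif list, were present on 1 strand or the other in 4 of the 6 windows (cpg-1, cpg-2, egg-1 and egg-2). They were in 61 of the 882 windows of the same length at other protein-coding promoters with a peak (6.92%), in 2.72% of 6682 windows at promoters with weaker candidates, and in 3.22% of the 300 bp around the starts of all 19973 genes. In all 4 members the element was read as GCGGGAA on the transcribed-direction strand, starting 183 bp (cpg-1), 234 bp (cpg-2), 115 bp (egg-1) and 124 bp (egg-2) upstream of the annotated 5′ end. These members form the family pairs cpg-1 with cpg-2 and egg-1 with egg-2, so they are not 4 unrelated genes. The 300 bp upstream were 50.4% and 53.8% identical within these pairs, against 49.3 to 54.6% for the other pairs of members. E2F and DP proteins of the worm, EFL-1 and DPL-1, are known regulators of germline and oogenesis genes. Matches to these letters are no evidence that either protein was bound.

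The shorter core GCGGGA, which lies inside that element and was chosen after the windows were seen, was in 5 of 6 windows, adding rme-2, where it began 85 bp upstream of the 5′ end. Other promoter windows with a peak held it in 11.9% of cases weaker candidates in 5.27%, and the starts of all genes in 6.49%. It spanned the summit at cpg-2 and rme-2, lay 16 bp upstream of the summit at egg-2, and lay 72 and 74 bp downstream of it at cpg-1 and egg-1. None of the 12 windows of equal length centred 500 bp to either side of the 6 summits held it. Given the 5.27% at weaker candidates, that count is near the background and does not show that the core is confined to the summits. Within 50 bp of the summit the count was 3 of 6, against 7.71% of the other promoter windows.

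A second string of letters, AAGGCGCG, also chosen after the windows were seen, was in 4 windows (cpg-1, egg-1, egg-3 and rme-2), against 1.70% of the other promoter windows with a peak and 0.584% of the weaker ones. Another such string, AGATCAAA, was in 4 windows too (cpg-1, cpg-2, egg-1 and egg-2), always as its complement TTTGATCT, against 1.59% and 1.87%. Those 4 windows are the same ones that held TTCCCGC. Because all 3 strings were picked for being shared, their counts among the members carry no weight beyond the description. Of the other motifs in the list, the piRNA upstream motif CTGTTTCA, the tRNA B box GTTCNANNC, the E-box CACGTG and the GAGA element GAGAGAG were in none of the 6 windows. The letters TATAAA, listed as a TATA element, were on either strand in 4 windows, against 18.8% of the other promoter windows with a peak, 24.1% of the weaker ones and 37.9% of all gene starts. They read in the direction of transcription at egg-1 alone, starting 106 bp upstream of the 5′ end, and on the other strand at cpg-1, egg-2 and egg-3. The GATA element TGATAA was in the egg-2 window alone, against 12.02%, 17.7% and 30.2% of those sets, and so was the T tract TTTTTTT, against 39.9%, 45.4% and 52.3%.

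**Figure D1:**
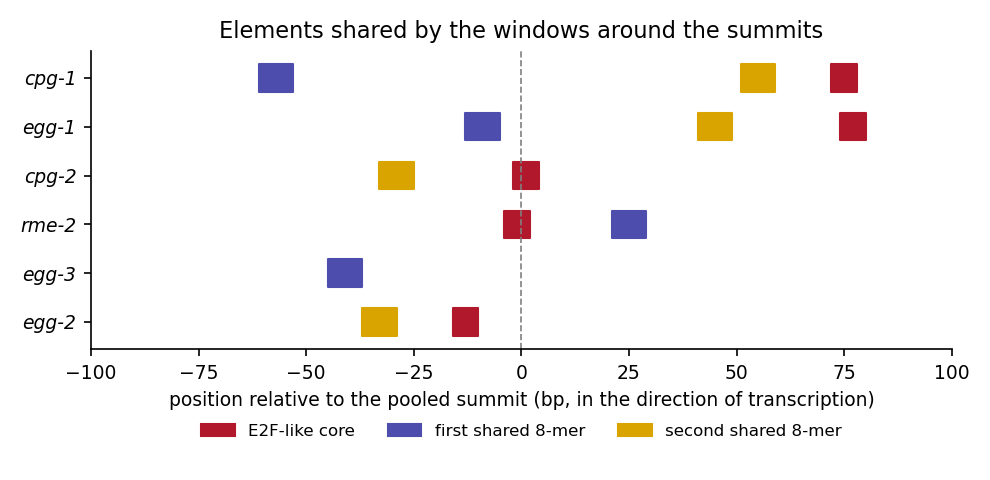
Positions of 3 short elements in the 201 bp around the pooled summit of each member, in bp from the summit in the direction of transcription, with the genes ordered by pooled rank from the top (red, GCGGGA; blue, AAGGCGCG; yellow, AGATCAAA). The E2F-like core is in 5 of the 6 windows, and egg-3 lacks it.

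All members but egg-2, 5 of 6, had a peak of the irreproducible discovery rate (IDR) list with its summit within 500 bp of the 5′ end. That list holds the 1676 regions the authors kept after comparing the replicates. Among all protein-coding genes the share was 5.94%, a background printed here for scale, since the members were chosen on these peaks. With a window of 1 kb the count was again 5, against 7.78% of all genes. A region of the pooled list of 30000 candidates was found at all 6, against 35.1% of all genes. All 1676 IDR peaks were also the top 1676 of the pooled list by signal. The signal is the authors' value per region in the unit of their caller. Being in the IDR list thus followed pooled signal, and does not by itself show that the replicates agreed at a region.

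The eggshell proteoglycan gene cpg-1 (WBGene00000465, chromosome III, 4489359 to 4491392, plus strand) had the strongest region. Its pooled signal was 179 at rank 51, and its signal was 48.1 at rank 98 in replicate 1 and 128 at rank 44 in replicate 2. The summit lay in intergenic DNA 255 bp upstream of the 5′ end, and 258 and 255 bp upstream in the replicate lists. Only 18 protein-coding genes had an IDR peak of higher signal at their 5′ end.

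The second proteoglycan gene, cpg-2 (WBGene00015102, III, 7102092 to 7103990, minus strand), had a pooled signal of 110.4 at rank 171. The replicate signals were 39.8 at rank 172 and 70.4 at rank 204. Its summit was 232 bp upstream of the 5′ end, a distance close to that at cpg-1, and the replicate summits lay within 2 bp of it.

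Among the genes of the oocyte membrane and cortex, egg-1 (WBGene00015083, III, 5728180 to 5730159, plus strand) was highest. It had a pooled signal of 124 at rank 119, with 45.04 at rank 123 in replicate 1 and 80.1 at rank 139 in replicate 2. All 3 lists placed the summit at the same base, 189 bp upstream.

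The paralogue egg-2 (WBGene00019811, III, 7058527 to 7060583, minus strand) was the member without an IDR peak. Its best pooled region had a signal of 34.1 at rank 2165, its replicate signals were 7.55 at rank 10094 and 21.5 at rank 2862, and its pooled summit was 108 bp upstream. The weakest IDR peak had a signal of 39.8, and egg-2 was the member nearest outside the list as egg-3, at 50.6, was nearest inside it. The deposited −log10 q-value was 2.94 at egg-2 and 3.42, the top value of the list, at each of the 5 members inside it.

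The egg-1 and egg-2 transcripts were 70.4% identical in a global alignment, against 45.3 to 53.4% for the 13 pairs of members that are not family pairs, while their 300 bp upstream were 53.8% identical, within the 49.3 to 54.6% of those other pairs. All 471 of the 31-mers around each of their summits occur once in the genome. The transcripts of egg-4 and egg-5, phosphatase-like partners of EGG-3, were 98.9% identical. Within 500 bp of the 5′ end egg-4 had an IDR peak (signal 49.3, rank 1121), and the best pooled candidate at egg-5 had a signal of 9.66 at rank 27243, with 95.3% of 31-mers there unique. That difference depended on the window, because both genes had an IDR peak with a summit within 1000 bp, and both had one overlapping the 500 bp window. With 1 value per gene in the pooled list neither pair was tested.

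The replicates disagreed at egg-3 (WBGene00009701, II, 10882408 to 10884441, minus strand). Its region had a signal of 46.1 at rank 638 in replicate 2 and 7.85 at rank 9173 in replicate 1, a ratio of ranks of 14.4. The pooled signal was 50.6 at rank 1080, with the summit 132 bp upstream, against 107 and 165 bp upstream in replicates 1 and 2. Of 1156 other genes with an IDR peak and a candidate in both replicates, 2.94% had a larger ratio of ranks, and the median ratio was 2.09. Among the 1676 strongest regions of replicate 1 there was none at egg-3.

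At the yolk receptor gene rme-2 (WBGene00004374, IV, 5470026 to 5473174, plus strand) the pooled signal was 73.8 at rank 498, with 28.0 at rank 428 in replicate 1 and 46.8 at rank 619 in replicate 2. The summit lay 81 bp upstream, the shortest distance among the 6, and within 6 bp of this in both replicates. The ratio of the replicate ranks was 1.45, and it was 2.23 at cpg-1, 1.19 at cpg-2, 1.13 at egg-1 and 3.53 at egg-2.

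**Figure D2:**
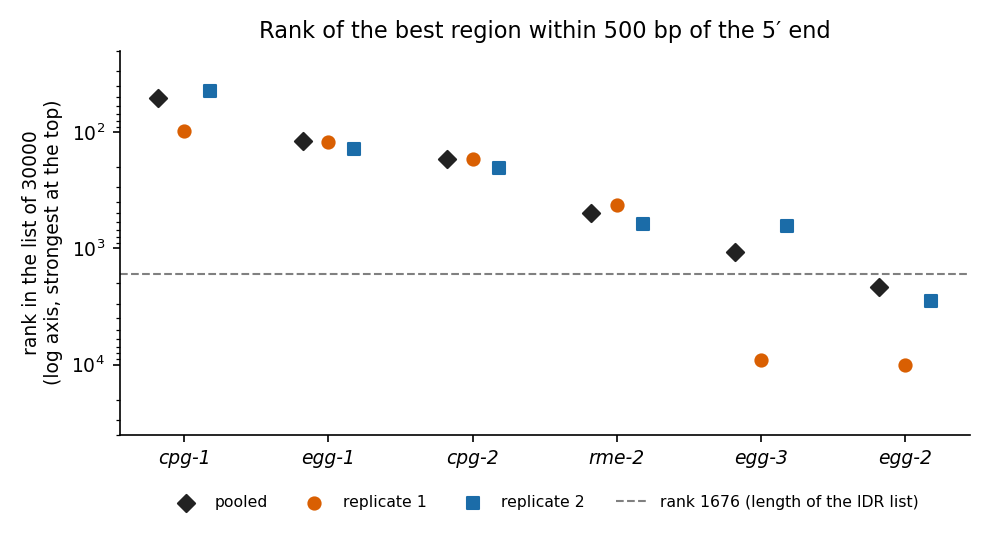
Rank of the best region within 500 bp of the 5′ end of each member in the pooled, replicate 1 and replicate 2 lists of 30000 regions, on a log axis with rank 1 at the top; the dashed line is rank 1676. cpg-1, egg-1, cpg-2 and rme-2 rank above the line in all 3 lists, egg-3 ranks below it in replicate 1, and egg-2 ranks below it in all 3.

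Taking the 1676 top regions of each replicate alone, 4 members were included in replicate 1 (all but egg-2 and egg-3), against 5.10% of all genes, and 5 in replicate 2 (all but egg-2), against 5.79%. The order of the members in the pooled list, cpg-1, egg-1, cpg-2, rme-2, egg-3 and egg-2, was the same in both replicates, though rme-2 and egg-3 were close together in replicate 2, at ranks 619 and 638. The median pooled signal of the 5 members with an IDR peak was 110.4, against 57.7 for the best peaks of the 1182 other genes. egg-3 was below that median, and 757 genes had a higher value.

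**Figure D3:**
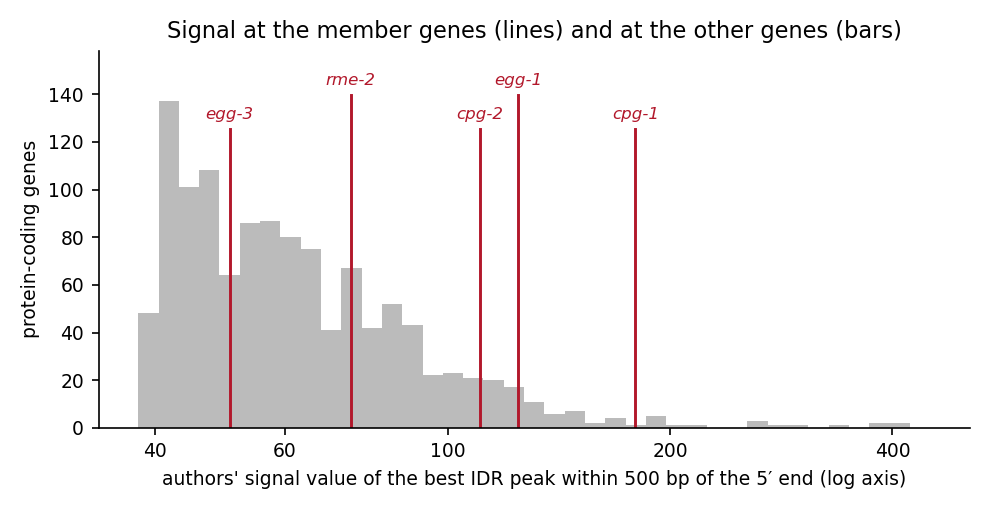
Authors' signal value (log axis) of the best IDR peak within 500 bp of the 5′ end, as counts of the 1182 other protein-coding genes (bars) and as lines for the 5 members with a peak. cpg-1, egg-1 and cpg-2 lie above 100 in the thin upper tail, and egg-3 lies below the median of 57.7.

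The 6 promoters shared some features of position and differed in others. Every summit was intergenic. Every summit was also upstream of the 5′ end, as were those of 90.4% of the 1182 other genes, and the median position of the 5 with an IDR peak was -189 bp, against -192 bp for the others. None of the 6 had the 5′ end of another protein-coding gene on the opposite strand within 1 kb upstream. The like comparison is 0 of the 5 members with an IDR peak against 645 of the 1182 other genes with one (54.6%). That share counts genes, so both genes are counted where a divergent pair has the same peak. The share over all protein-coding genes was not taken. No other protein-coding 5′ end lay within 500 bp of the 5 IDR summits, and no annotated non-coding RNA gene, apart from pseudogenes, within 500 bp of any of the 6. For these counts, and for intergenic summits, the share among other genes was not taken, so they do not set the members apart. The next protein-coding gene upstream was on the opposite strand at cpg-1 (ins-17, 11787 bp away), cpg-2 (odd-1, 4323 bp) and rme-2 (Y52D5A.2, 5523 bp). It was on the same strand at egg-1 (wrm-1, 1065 bp), egg-2 (R01H2.4, 440 bp) and egg-3 (F44F4.3, 264 bp). The egg-3 summit, 132 bp upstream, lay between the egg-3 5′ end and the 3′ end of F44F4.3. Which of these genes that region belongs to was not tested. The regions at cpg-1, cpg-2 and egg-1 were 167, 84 and 95 bp wide, narrower than the usual 276 bp, as were 130 of the 200 strongest nuclear regions. The GC content of the 201 bp windows of the 5 printed members ran from 23.4% at egg-2 to 41.8% at rme-2, and the median of the other promoter windows with a peak was 37.8%.

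A further region lay at the far end of some of these genes, which the choice of genes did not use and which was noticed in the data. The genes cpg-1, cpg-2 and rme-2, 3 of the 6, had an IDR peak within 250 bp of the annotated 3′ end, against 2.57% of all protein-coding genes. Among genes with an IDR peak at the 5′ end the share was 13.3% (158 of 1187), and the members had 3 of 5. At cpg-1 the 3′ peak had its summit 64 bp past the 3′ end (signal 95.5, pooled rank 242), and the region ranked 130 in replicate 1 and 412 in replicate 2. The convergent gene atf-7 has its 3′ end 235 bp from that of cpg-1, so this summit lay within 250 bp of both. At cpg-2 it was 75 bp past the 3′ end (signal 72.1, rank 532, with replicate ranks of 549 and 656). At rme-2 it was 98 bp past the 3′ end with a signal of 71.8 at rank 539, close to the 73.8 of the 5′ peak, but the replicates differed, with rank 3166 in replicate 1 and rank 385 in replicate 2.

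Candidates outside the IDR list were found past the 3′ ends of egg-2 (190 bp past the end, signal 26.7, rank 3356) and egg-3 (154 bp, signal 21.5, rank 5274). With these, 5 of 6 members had a pooled candidate there, against 26.1% of all genes. In replicate 1 the 3′ region had the higher signal at egg-2 (15.96, against 7.55 at the 5′ end) and at egg-3 (13.8, against 7.85), and in replicate 2 at rme-2 (55.9, against 46.8). At egg-1 the pooled list had none within 250 bp, although replicate 1 placed a region 122 bp past the end (rank 2721) and replicate 2 placed 1 at 76 bp before it (rank 2449). The cpg-1 and rme-2 summits at the 3′ end were intergenic and that of cpg-2 was in an exon of the convergent gene ZK418.11. The pooled candidates at egg-2 and egg-3 were likewise in exons of the convergent genes R01H2.2 and lurp-1. Which gene of each pair such a region belongs to was not tested. No annotated 5′ end of any gene lay within 500 bp of the 3 IDR summits. At all 6 members the next protein-coding gene downstream was on the opposite strand, against 46.0% of other genes, and other genes with IDR peaks at both ends had this arrangement in 43.2% of cases. The core GCGGGA was in none of the 3 windows at these 3′ summits, a count too small to differ from the 5.27% of promoter windows with weaker candidates.

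**Figure D4:**
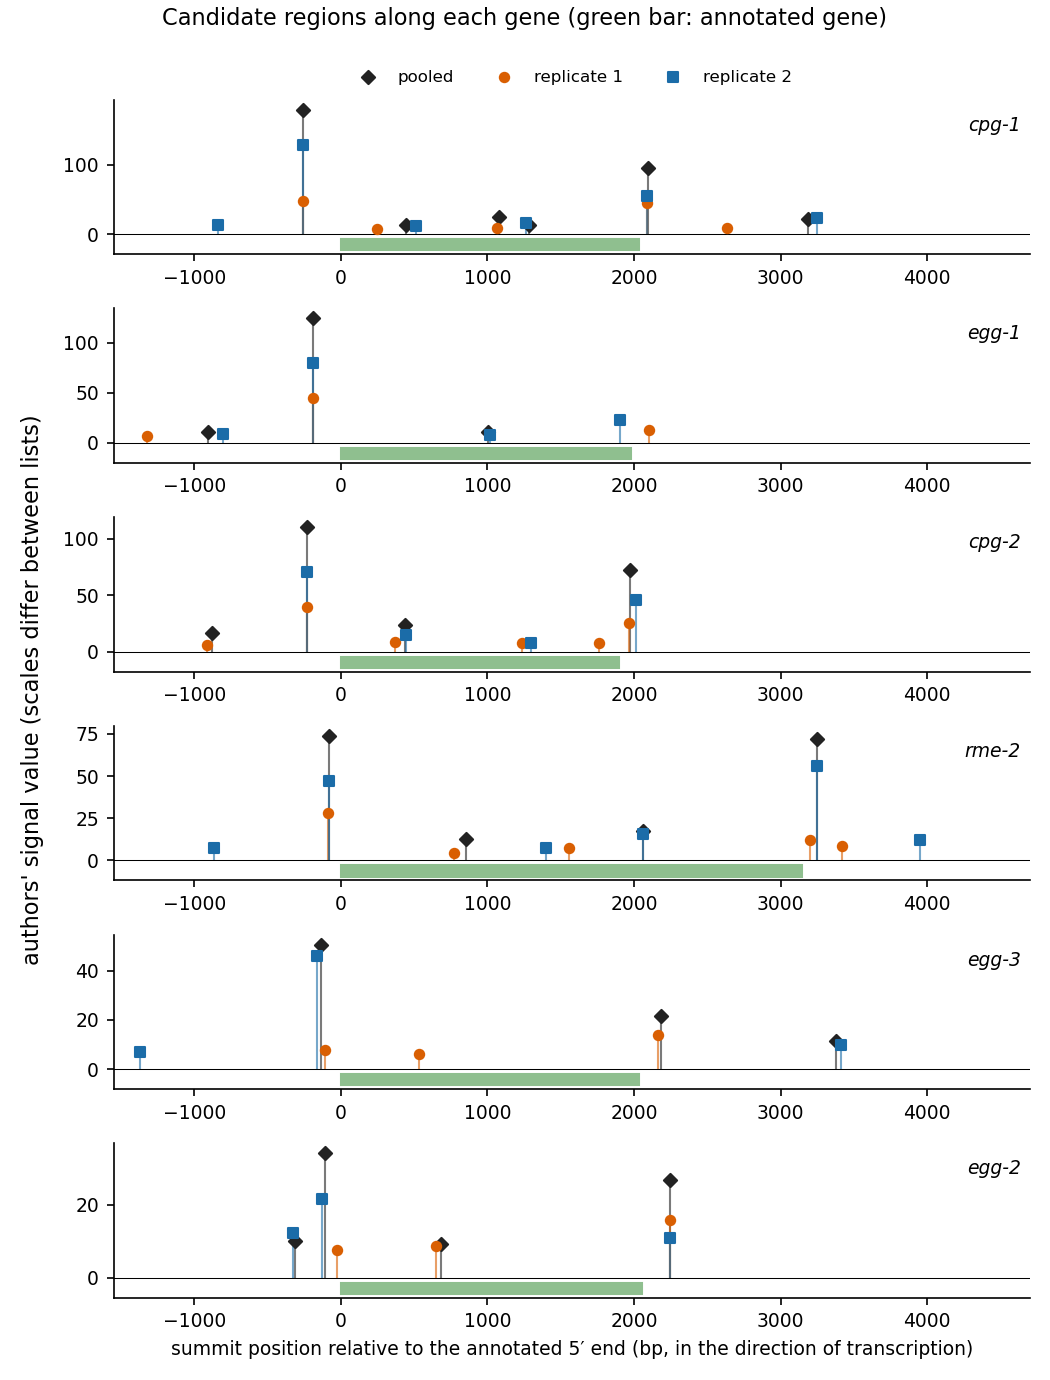
Summits of all candidate regions along each member, in bp from the 5′ end in the direction of transcription, with the authors' signal value on the vertical axis for the pooled, replicate 1 and replicate 2 lists, whose scales differ; the green bar is the annotated gene. The highest pooled region of each gene is upstream of the 5′ end, cpg-1, cpg-2 and rme-2 have another high region just past the 3′ end, and single replicates put the 3′ region higher at egg-2 and egg-3 (replicate 1) and rme-2 (replicate 2).

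Between the ends no pooled region reached the signal of the IDR list. The strongest pooled region more than 250 bp inside both ends of a member gene was at 1082 bp in cpg-1, in an intron, with a signal of 24.8 at rank 3876. That is above the 3′ candidate of egg-3 (21.5) and just below that of egg-2 (26.7), so those 2 candidates do not stand out from regions inside the genes. Within the 500 bp window, the pooled regions closest to its edge were at 443 bp in cpg-1 (signal 12.7, rank 16974) and 437 bp in cpg-2 (signal 23.8, rank 4220), both downstream of the 5′ end. The nearest outside it were at 686 bp in egg-2 (signal 9.21, rank 29204) and 852 bp in rme-2 (signal 12.5, rank 17510).

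Other genes of the eggshell were counted from a list drawn up with earlier results of these data known. Of 12 other eggshell and egg activation genes, 5 had an IDR peak within 500 bp, against the background of 5.94%. The highest was at perm-1, needed for the permeability barrier of the embryo (signal 89.4, rank 291), followed by dgtr-1, an acyltransferase gene for the lipid of that barrier (81.8, rank 377), chs-1, the chitin synthase of the eggshell (72.8, rank 517), and egg-4 (49.3, rank 1121). The remaining gene with a peak was egg-6 (42.6, rank 1471), and its region ranked 3457 in replicate 1 and 1636 in replicate 2. The gene of the chitin-binding protein CBD-1, a partner of the EGG proteins, was outside the IDR list like egg-2 (signal 34.99, rank 2065), and so was gna-2, which supplies a sugar precursor of chitin (signal 30.9, rank 2546). perm-2, perm-4 and the sperm-supplied factor gene spe-11 had no candidate within 500 bp, and the kinase gene mbk-2 had a candidate at rank 24153.

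The lists around the members are short, and each count below is to be read against the 5.94% of all protein-coding genes with an IDR peak. Among 9 genes that make the chondroitin chains carried by CPG-1 and CPG-2, sqv-3 alone had an IDR peak, and it was the weakest of the whole list (signal 39.8, rank 1676). Of 5 other proteoglycan core genes found in the annotation, cpg-4 had a peak (signal 41.0, rank 1592). The 6 vitellogenin genes, whose yolk proteins are made in the intestine and bound by RME-2, had none, and the best candidate was at vit-6 with rank 12648. All of them but vit-6 are on the X chromosome, as are several genes of the endocytosis list below, while the members are all autosomal. The 5.94% was taken over all chromosomes and was not split into X and autosomes. Of 16 genes of endocytosis and receptor recycling, which includes the machinery that takes up RME-2 with its cargo, the adaptor gene apb-1 had a peak (signal 66.8, rank 610), a share close to that of all genes.

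On the sperm side, none of 7 genes for sperm surface and fertilization proteins had an IDR peak within 500 bp. None of 8 genes that mark intestine, muscle, neurons or hypodermis had one either, and the best candidate was at the neuronal gene snb-1 (signal 34.5, rank 2119). At the 5.94% of all genes, a count of 0 in lists of 7 and 8 genes, or among the 6 yolk genes, is near the background and does not set them apart. The cell type in which SNPC-1.3 was bound was not measured, and the differences between these short lists were not tested.

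**Figure D5:**
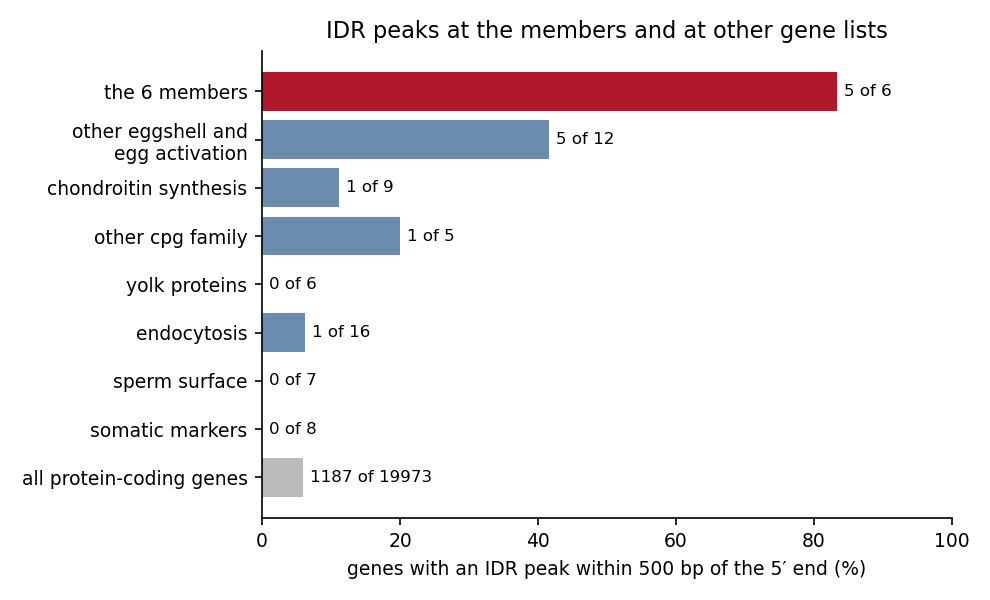
Share of genes with an IDR peak within 500 bp of the 5′ end for the 6 members, 7 other gene lists and all protein-coding genes, with the counts at the bars. The members have 5 of 6, other eggshell and egg activation genes 5 of 12, and the yolk, sperm surface and somatic lists 0.

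For each member with an IDR peak, the gene with the nearest pair of replicate ranks was looked up among 4532 protein-coding genes with a candidate in both replicates, over 2 samples. These were wip-1 for cpg-1 (ranks 80 and 53), F42C5.9 for cpg-2 (186 and 206), mex-1 for egg-1 (134 and 140), kars-1 for egg-3 (9013 and 731) and rpl-36 for rme-2 (407 and 610). The sum of absolute log2 rank ratios ran from 0.094 for rpl-36 to 0.56 for wip-1.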

How the data were processed

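Regions and IDR peaks were used as the authors deposited them on ce11. Per the text notes deposited with the files, each replicate's regions were called from its alignments against 1 control, pooled regions from both replicates, and IDR peaks from the 3 lists. For aligner, caller and IDR threshold, names and settings are not stated in the notes or labels. The deposited lists hold a signal value and a −log10 q-value per region. Depth is unknown, because the files hold no read counts. Signal was compared only within a list.

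Summits were assigned within 500 bp of 5′ ends of nuclear protein-coding genes (Ensembl release 115), with starts converted to 1-based positions, using Python 3.11.15, pandas 2.3.3 and biopython 1.88. The assignment was tested on simulated data. No significance test was made, since there is 1 group of 2 replicates and the members were chosen on these values. Members and lists were chosen with earlier results of these data known. Genes named are the members, neighbours, genes of nearest ranks and, per list, at most 4 with the strongest peaks or else the best candidate, where reported; egg-5, egg-6, cbd-1, gna-2, mbk-2, perm-2, perm-4 and spe-11 were added after their values were seen. Of the listed genes, cpg-5, cpg-6, spe-13 and trp-3 were not matched by name. Alternatives were other windows, overlap in place of summits, the 838 strongest IDR peaks, each replicate alone and transcript or RefSeq 5′ ends. Windows at 3′ ends and further elements were added after seeing the data. Alignments were global (match 1, mismatch -1, gap opening -2, extension -0.5). The ce10 lists were not used here. The sequence of 1 window and the values of 1 listed gene are not reported here.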

Additional observations from a re-analysis of the deposited data

How the results depend on the processing

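The count of members with an IDR peak was 4 or 5 of 6 under every alternative tried; cpg-1 was lost at 250 bp, and egg-3 was lost with the 838 strongest peaks and without replicate 2. Leaving out replicate 1 or 2 gave 4 to 5 members, 1018 to 1156 of all genes, 0 to 2 chondroitin genes, 0 to 1 of the cpg family, and 3 genes with a 3′ peak each time, though without replicate 2 egg-2 took the place of rme-2. With a window of 250 bp the counts were 736 of all genes, 2 of the egg activation genes, 0 chondroitin genes and 0 endocytosis genes. At 1000 bp they were 6 egg activation genes (egg-5 added, as it was by overlap in place of summits), 4 chondroitin genes, 3 endocytosis genes and 1 sperm surface gene (spe-36). With the 838 strongest peaks they were 591 of all genes, 3 egg activation genes, 0 chondroitin genes and 0 of the cpg family. Using the 5′ end of any transcript gave 2 chondroitin genes, 2 endocytosis genes and 1 sperm surface gene (spe-9). The core GCGGGA was within 50 bp of 3 summits and within 150 bp of 5. The causes of these changes were not tested, beyond the smaller window or list itself. Of 80 alternatives, 62 kept their value within 1.5 times and 18 moved. No paired analysis was possible because there is 1 group only. Unknown depth and 2 replicates limit what a missing peak shows: egg-2 and cbd-1 were not in the IDR list, which is not absence of binding, and cbd-1 ranked 1231 in replicate 1.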
